A study of Homo sapiens with 2 samples.

Results

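The 6 genes described here are the 4 human TCF/LEF genes (TCF7, TCF7L1, TCF7L2 and LEF1) and a pair of transcription factor genes that Wnt signalling switches on (SP5 and ASCL2). They were listed by name from the 20163 protein-coding gene records of GENCODE release 44 on hg19. The rule uses their names only, but the genes were chosen with earlier results of these data known. A SOX9 peak was counted for a gene when its summit, the position of most overlapping tags, lay in the gene body, in the 20 kb on either side of it or within 1 kb of one of its annotated transcription start sites (TSSs). By this rule the genes held 15 of the 17847 SOX9 peaks. The study mapped SOX9 in HT-29, a cell line from a human colorectal adenocarcinoma that carries mutant APC, by sequencing chromatin precipitated with a SOX9 antibody (SOX9 ChIP) and unprecipitated chromatin of the same line (input DNA). No transgene or treatment is named for the cells, the sample labels give DMEM as the medium whereas the methods of the study give McCoy's 5A, and the data hold no RNA measurement against which the cell identity could be checked. There was 1 library of each kind with 12320108 tags, and the input had been cut down to that number by the authors, so no value here has a replicate error and none was tested between conditions. Intervals given with tag counts are exact Poisson or conditional binomial 95% intervals and cover counting error only.

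TCF/LEF proteins bind DNA through an HMG box and sit at the end of the canonical Wnt pathway. Without a Wnt signal they recruit TLE corepressors, and when β-catenin is stabilised, as in cells with mutant APC, it binds the N terminus of TCF/LEF proteins and turns them into activators. TCF7L2 (also called TCF4) is the main family member of the intestinal epithelium, TCF7L1 acts mostly as a repressor in mouse embryonic stem cells, and TCF7 and LEF1 are best known from lymphocytes and are also transcribed from internal promoters that leave out the β-catenin binding part. SP5 is a zinc finger factor of the SP/KLF family, and ASCL2 is a basic helix-loop-helix factor that controls intestinal stem cells in the mouse. SOX9 also binds DNA through an HMG box, so its half-site and the TCF site resemble each other.

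The sequences under 5 of the peaks are shown because they hold the 3 SOX half-sites and the AP-1 site nearest to its summit, or, in 1 case, none of the motifs under the TCF7L2 peak with the most tags. The SOX half-site was searched as the 8 strings NNCAANG in which each N is A or T, on both strands, in the 100 bp to either side of the summit. The TCF site was searched as CTTTGAT or CTTTGAA, whose complements ATCAAAG and TTCAAAG are among the half-site strings, so each TCF match is also a half-site match. AP-1 sites were searched as TGAGTCA or TGACTCA, the NF-Y box as CCAAT and the GC box as GGGCGG. All sequences are from hg19, on the plus strand, on which TCF7, TCF7L2 and SP5 are transcribed. Capitals mark the SOX half-site in the first 3 and the AP-1 site in the fourth, and the last holds none of the motifs.
TCF7, downstream peak, chr5:133485456-133485516: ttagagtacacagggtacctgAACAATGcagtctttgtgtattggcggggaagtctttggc
TCF7L2, promoter peak, chr10:114709823-114709923: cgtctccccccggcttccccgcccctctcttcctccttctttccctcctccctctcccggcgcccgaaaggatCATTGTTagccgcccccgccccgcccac
SP5, promoter peak, chr2:171571311-171571426: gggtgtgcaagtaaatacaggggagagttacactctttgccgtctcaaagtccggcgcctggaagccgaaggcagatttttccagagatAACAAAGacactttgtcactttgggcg
TCF7L2, peak at +137.3 kb, chr10:114847292-114847352: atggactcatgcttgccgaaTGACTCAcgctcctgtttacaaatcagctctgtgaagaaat
TCF7L2, peak at +143.6 kb, chr10:114853560-114853620: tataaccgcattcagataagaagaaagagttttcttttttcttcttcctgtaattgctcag

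All 6 genes had at least 1 SOX9 peak in the body or 20 kb around it, against 65.3% of all protein-coding gene records. TCF7L2 held 7 peaks, TCF7, SP5 and ASCL2 held 2 each, and LEF1 and TCF7L1 held 1 each. The single peak counted for TCF7L1 lay at the start of another gene, TGOLN2. It was not counted with 10 kb around the gene, which leaves 5 of 6 genes with a peak, against 59.7% of all records. With only peaks of a MACS score, a measure of the p-value, of at least 100 the number was also 5, against 55.4%, as LEF1 then had none. A summit within 1 kb of one of their own TSSs was present at 5 of the 6 genes, the exception being TCF7L1, against 44.8% of all protein-coding gene records. Because the genes differ in length, the number of peaks was also divided by the length of the window. ASCL2 and SP5, the shortest genes, had 4.75 and 4.68 peaks per 100 kb and stood at percentiles 90.1 and 89.6 of all protein-coding records. TCF7L2 had 2.72 and TCF7 had 2.59 peaks per 100 kb, at percentiles 77.0 and 76.2. LEF1 (0.62) and TCF7L1 (0.461) were below the median of 1.19 over all records, at percentiles 39.6 and 37.3. These counts are small and genes are not replicates, so the order of neighbours in it is a description only.

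By height, the 15 peaks were spread around the middle of the SOX9 peak list. Their tags ranged from 13 to 135 with a median of 46 (quartiles 33 and 54.5), against a median of 45 in all peaks (quartiles 30 and 69), and 8 of the 15 exceeded that median. Fold enrichment, which the peak caller MACS gives as SOX9 tags over the number the input predicts there, had a median of 9.31 in the 15 peaks and 10.4 in all peaks. The SOX9 signal, the number of tags extended to 150 bp that cover a bin of 32 nt, was higher than the input signal in all 15, which is what a peak call requires. The highest SOX9 bin ranged from 9 to 40 and the highest input bin from 1 to 12. With 1 added to both, the ratio of the highest bins had a median of 3.17, against 3.60 in all peaks. The empirical false discovery rate of MACS was 0 for 11 of the 15 and reached 0.05% at LEF1. The share of all peaks with a rate of 0 was not counted, so the 11 are a description only.

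**Figure D1:**
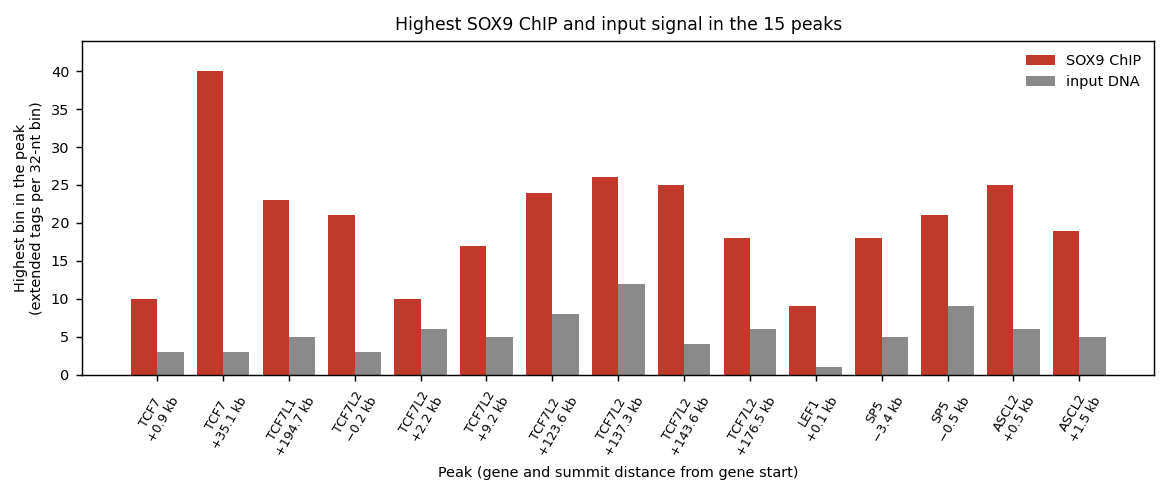
Highest SOX9 ChIP signal (red) and input signal (grey) in each of the 15 peaks, in extended tags per 32-nt bin, ordered by gene and by distance of the summit from the gene start in kb. There is 1 library per bar and no error bar. The TCF7 peak at +35.1 kb is the tallest, at 40 against 3, and the LEF1 peak the lowest, at 9 against 1.

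At the starts of the TCF/LEF genes, the SOX9 count and its ratio to the input were highest at TCF7L2, and TCF7L1 had no peak. The TCF7L2 promoter peak (chr10:114709404-114710201) had its summit 153 bp upstream of the gene start, 50 tags (37.1 to 65.9) and a fold enrichment of 16.3, at percentile 83.1 of all peaks. Its highest bin held 21 SOX9 tags, against 3 input tags. Within 1 kb of the gene start there were 73 SOX9 tags (57.2 to 91.8) and 17 input tags (9.90 to 27.2), a ratio of 4.29 (2.51 to 7.77) at percentile 94.1 of all protein-coding records. The intervals of the SOX9 and input counts did not overlap, and this also held at TCF7, LEF1, SP5 and ASCL2. Each of these windows holds a peak that was called on SOX9 over this same input. The share of all gene starts with such a separation was not counted, so the number of genes is a description only. Over all protein-coding records the median was 31.8 SOX9 tags and 16.2 input tags within 1 kb of the gene start. A half-site, AACAATG on the minus strand and printed above as CATTGTT, lay 46 bp downstream of the summit, among GC boxes.

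LEF1, on the minus strand of chromosome 4, had the weakest of the 15 peaks at its start. The peak (chr4:109089898-109090312) held 13 tags (6.92 to 22.2) at a fold enrichment of 11.4, and its summit lay in the first exon, 55 bp downstream of the TSS of the canonical transcript. The highest bin held 9 SOX9 tags and 1 input tag. By tags it stood at percentile 1.23 of all peaks, but by fold enrichment at percentile 58.9. Within 1 kb of the gene start LEF1 had 28 SOX9 tags (18.6 to 40.5) and 8 input tags (3.45 to 15.8), which is below the median of 31.8 SOX9 tags over all protein-coding records and below their median of 16.2 input tags. The ratio of the counts was 3.50 (1.55 to 8.89), at percentile 88.0 of all records and close to those of SP5 and ASCL2. The antisense gene LEF1-AS1 starts 1352 bp from the summit, so a signal between the genes cannot be given to either of them alone.

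TCF7 had a broad and low peak at its start. This peak (chr5:133450419-133451575) was 1157 bp wide and held 41 tags (29.4 to 55.6) at a fold enrichment of 5.49, at percentile 3.24 of all peaks. Its highest bin held 10 SOX9 tags and 3 input tags. Many TCF7 transcripts start here, and the summit lay 888 bp downstream of the gene start and 6 bp downstream of the nearest TSS. The 46 SOX9 tags (33.7 to 61.4) and 20 input tags (12.2 to 30.9) within 1 kb of the gene start gave a ratio of 2.30 (1.33 to 4.10), at percentile 63.4, so the start of TCF7 was near the middle of all gene starts.

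The start of TCF7L1 gave no SOX9 enrichment that these libraries could resolve. Within 1 kb of its gene start there were 6 SOX9 tags (2.20 to 13.1) and 5 input tags (1.62 to 11.7), a ratio of 1.20 (0.305 to 4.97). Both libraries had no tag in the bins within 200 bp of the gene start. Both counts were also low for a gene start, at percentiles 16.7 and 14.9 of all protein-coding records, so a difference from the other genes in the ratio was not detectable at this depth, whereas the SOX9 count itself lay outside the intervals of the other 5 genes. The only peak in the window (chr2:85554772-85555596) held 46 tags, had 10.5-fold enrichment and reached a highest bin of 23 SOX9 tags against 5 input tags. It lay past the gene's end, 194673 bp from the gene start and 41 bp from a TSS of TGOLN2, which encodes a protein of the trans-Golgi network. The highest SOX9 bin outside a peak in the TCF7L1 window held 11 tags against 4 in the input.

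SP5 and ASCL2, the Wnt-driven factor genes, had more SOX9 tags within 1 kb of their gene starts than TCF7, TCF7L1 or LEF1. At ASCL2 this did not hold nearer to the start. The highest SOX9 bin within 200 bp of it was 5, against 6 at TCF7, 9 at LEF1 and 0 at TCF7L1. At SP5 there were 132 SOX9 tags (110 to 157) and 38 input tags (26.9 to 52.2) within 1 kb of the gene start, a ratio of 3.47 (2.41 to 5.12). The SOX9 count stood at percentile 95.9 of all protein-coding records and the input count at percentile 93.5. At ASCL2 there were 71 SOX9 tags (55.5 to 89.6) and 21 input tags (13 to 32.1), a ratio of 3.38 (2.05 to 5.79). The intervals of the ratio overlapped between all 6 genes, and those of the SOX9 count did not overlap between SP5 and any other gene, whereas those of ASCL2 and TCF7 did.

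The SP5 promoter peak (chr2:171570781-171572995) was the largest of the 15 by tags. It was 2215 bp wide, against a median of 793 bp in all peaks, and held 135 tags (113 to 160), rank 907 of the list, but at a fold enrichment of 7.91. Its summit lay 506 bp upstream of the gene start, with 21 SOX9 tags in the highest bin and 9 input tags in the highest input bin. A further maximum stood at the start of the gene, where the highest bin within 200 bp held 19 SOX9 tags and 5 input tags. A half-site, AACAAAG, lay 62 bp downstream of the summit. The long noncoding RNA gene LINC01124 starts 264 bp from this summit, nearer than SP5 does, so the peak cannot be given to SP5 alone. The second SP5 peak (chr2:171568085-171569004), 3384 bp upstream of the gene start, held 45 tags and was enriched 9.18-fold, and there were 18 SOX9 tags against 5 input tags in the highest bins. It had 3 GC boxes and no half-site.

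Both ASCL2 peaks lay inside this gene of 2091 bp, which is on the minus strand of chromosome 11. The first (chr11:2290779-2291677) had its summit in coding sequence of exon 1, 512 bp downstream of the TSS, with 53 tags (39.7 to 69.3), a fold enrichment of 9.66 and 25 SOX9 tags against 6 input tags in the highest bins. The second (chr11:2289950-2290650) had its summit in exon 2, 1508 bp downstream of the TSS, with 36 tags (25.2 to 49.8), a fold enrichment of 12.3 and 19 SOX9 tags against 5 input tags. The signal thus stood in the body of the gene and not at its TSS, where the highest bin within 200 bp held 5 SOX9 tags and 1 input tag. The sequence around both summits was rich in G and C, which made up 71.6% and 80.6% of the bases within 100 bp, and held no half-site. ASCL2 also lay in the region of most input DNA among the 6 genes. The mean input signal over 1 Mb around its start was 1.65 times the mean of all autosomes, against 1.16 to 1.38 times around the other 5 gene starts, and the part of this in the tag counts was not tested.

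**Figure D2:**
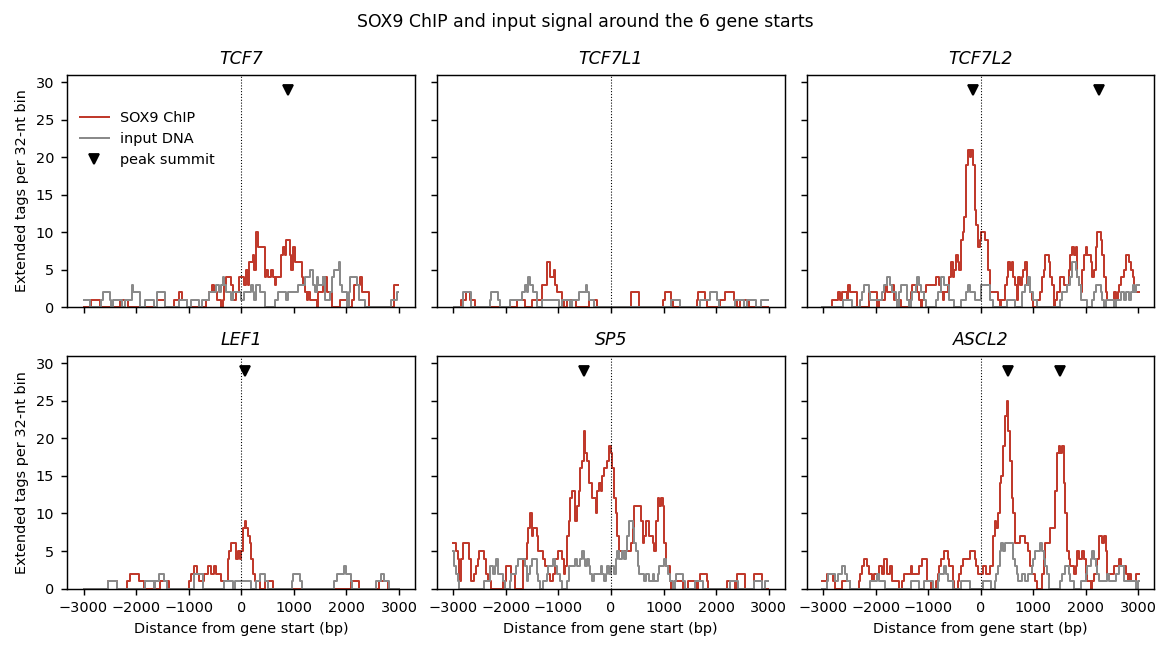
SOX9 ChIP signal (red) and input signal (grey), in extended tags per 32-nt bin, within 3000 bp of the gene start (dotted line) of the 6 genes, drawn in the direction of transcription. Triangles mark peak summits. TCF7L2 has a maximum of 21 just upstream of its start, SP5 has maxima of 21 and 19, both ASCL2 maxima (25 and 19) lie inside the gene, and TCF7L1 has no peak here.

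Away from the gene starts, the peak with the strongest enrichment over input lay in the 3′ part of TCF7. This peak (chr5:133485235-133485904) held 56 tags (42.3 to 72.7) at a fold enrichment of 31.8, at percentile 96.7 of all peaks, and had 40 SOX9 tags against 3 input tags in its highest bins. Its summit lay 35114 bp downstream of the gene start, inside the gene record but past the end of the canonical transcript, and 12102 bp from the nearest TSS of another gene, SKP1. It was also narrow, with signal above 50% of the summit value over 192 bp, against a median of 256 bp in all peaks. The half-site AACAATG was centred 6 bp from the summit. Together with a second copy on the other strand that has 1 mismatch, 4 bp further on, it forms an inverted pair of half-sites centred 0.500 bp from the summit. CCAAT was also present, 12 bp from the summit as its complement. Paired half-sites of this kind, spaced by 4 bp, where 1 copy may have up to 2 mismatches, were found in this peak only among the 15 and in 3.57% of all peaks.

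TCF7L2 held 6 further peaks, all in introns of the canonical transcript, of which 5 lay more than 1 kb from any of its TSSs. The 3 with the most tags lay within 20 kb of each other in intron 5, more than 1 kb from any TSS of the gene. The one at +143584 bp (chr10:114853100-114854079) held 76 tags (59.9 to 95.1) with 14-fold enrichment and 25 SOX9 tags against 4 input tags in the highest bins. It was the broadest of the 15 at 50% of the summit value, at 448 bp, and none of the motifs searched was present in its A- and T-rich window, where 34.8% of bases were G or C. The one at +137316 bp (chr10:114846568-114847674) held 75 tags (59.0 to 94.0) but at a fold enrichment of 6.08, at percentile 6.70 of all peaks. Its highest bins held 26 SOX9 tags and 12 input tags, the most input of the 15. It had a pair of AP-1 sites, at 7 and 92 bp from the summit. The one at +123581 bp (chr10:114833264-114834182) held 53 tags (39.7 to 69.3), was enriched 7.45-fold and had 24 SOX9 tags against 8 input tags, and an AP-1 site 29 bp from the summit. AP-1 is the dimer of FOS and JUN proteins.

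The remaining TCF7L2 peaks were small. A pair in intron 3, at +2248 and +9246 bp, held 29 and 30 tags, with highest bins of 10 SOX9 tags against 6 input tags and 17 against 5. The first of these lay 620 bp from the start of a long noncoding RNA gene. The peak at +176539 bp (chr10:114886415-114886776) held 21 tags (13 to 32.1) and was enriched 9.31-fold, and there were 18 SOX9 tags against 6 input tags in the highest bins. Its summit lay 62 bp upstream of an internal TSS of TCF7L2, so this gene had a SOX9 summit at both its first and an internal start site.

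**Figure D3:**
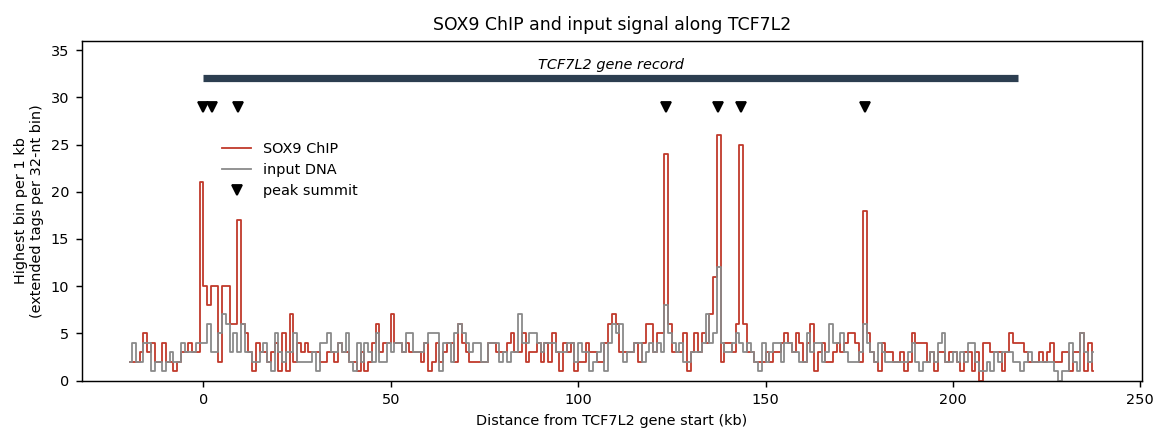
Highest SOX9 ChIP bin (red) and input bin (grey) in each 1 kb along TCF7L2 and 20 kb on either side, against distance from the gene start in kb, with the 7 summits as triangles. The 3 tallest SOX9 maxima of 24, 26 and 25 tags stand together in the second part of the gene, and the input reaches 12 under the middle one.

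**Figure D4:**
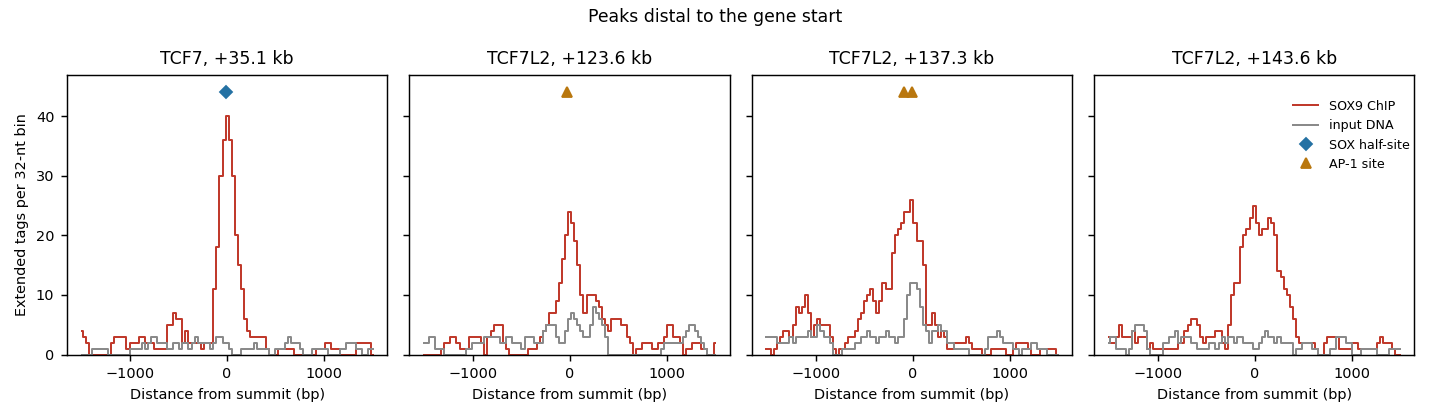
SOX9 ChIP signal (red) and input signal (grey), in extended tags per 32-nt bin, within 1500 bp of the summits of the distal TCF7 peak and 3 intronic TCF7L2 peaks. The diamond marks the SOX half-site and triangles mark AP-1 sites. The TCF7 peak is narrow with its half-site at the summit, and the TCF7L2 peak at +143.6 kb is broad with neither site.

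SOX half-sites were present in 3 of the 15 peaks (TCF7 downstream, TCF7L2 promoter and SP5 promoter), a share of 20%, against 20.5% of all peaks. Counting the TSSs of all genes, 8 of the 15 peaks lay within 1 kb of a TSS and 7 lay farther away, since the TCF7L1 peak and the TCF7L2 peak at +2248 bp are near the starts of other genes. A half-site was present in 2 of these 8 peaks (25%, Wilson 95% interval 7.15% to 59.1%), against 8.83% of all peaks within 1 kb of a TSS. Of the 7 peaks farther away 1 had a half-site (14.3%, 2.57% to 51.3%), against 34.3% of all peaks farther away. Both intervals include the share in all peaks of the same class, and neither difference was tested. The Wilson intervals in this paragraph treat peaks as independent draws, although several share a gene and peaks are not replicates. They are therefore a description only. No TCF site was found near the 15 summits, against 6.94% of all peaks. CCAAT was found near 3 summits (26.4% of all peaks), AP-1 sites near 2 (12.0%) and GC boxes near 9 (37.7%). GC boxes were present in 6 of the 8 peaks near a TSS (75%, 40.9% to 92.9%), against 58.8% of all such peaks. Of the 7 peaks farther away 3 had one (42.9%, 15.8% to 75%), against 13% of all peaks farther away. When spacers of 3 to 5 bp were allowed between paired half-sites, a choice made after the SP5 sequence had been seen, a second peak was added, at SP5, with a spacer of 3 bp and 1 mismatch, and 7.27% of all peaks then had such a pair. In 4 of the 15 peaks none of the motifs was found, a count given without the share in all peaks and so a description only.

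Summed over each gene window outside the peaks, no excess of SOX9 over input tags was resolved at any of the 6 genes. The parts left out were called on SOX9 over this same input, and the libraries have equal totals. A ratio near 1 in the rest is thus partly fixed by the choice. In the gene windows without the peak intervals, TCF7L2 had 1667 SOX9 tags and 1657 input tags, a ratio of 1.01 (0.939 to 1.08). TCF7L1 had 915 and 924 tags, a ratio of 0.990 (0.903 to 1.09), and LEF1 had 623 and 651 tags, a ratio of 0.957 (0.856 to 1.07). The ratio was 1.09 (0.945 to 1.25) at TCF7, 0.977 (0.806 to 1.18) at SP5 and 1.00 (0.837 to 1.20) at ASCL2. Each interval included 1. The highest SOX9 bin outside a peak held between 5 and 11 tags in the 6 windows, against 1 to 4 input tags in the same bin. At TCF7L2 it held 10 against 1, so a sum over the window can hide a local excess.

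The other genes of the pathway considered were 24 partners and regulators of the TCF and β-catenin complex, a list chosen with earlier results of these data known. Of these, 18 carried a promoter summit by the same distance of 1 kb, against the 44.8% of all protein-coding records given above. With gene starts in place of all TSSs the number was 14, against 38.1%, and that of the member genes stayed at 5. By role, the 18 were 4 of 5 genes of the β-catenin coactivator group, 7 of 9 corepressors or inhibitors, 5 of 7 general coactivators and 2 of 3 kinases. The strongest promoter peaks of these 18 genes had a median of 67 tags and ranged from 25 to 204. NLK, which encodes a kinase that phosphorylates TCF/LEF proteins, had 204 tags and 109 SOX9 tags against 7 input tags in the highest bins. TLE3, a TLE corepressor gene, had 151 tags, with 66 against 6 in the highest bins. PYGO2, which encodes a PHD finger protein of the β-catenin complex, had 118 tags, with 45 against 5 in the highest bins. Only 10 SOX9 tags and 14 input tags lay within 1 kb of the PYGO2 gene start, so this peak lay at another of its TSSs. BCL9, which encodes the adaptor between β-catenin and Pygopus, had 105 tags, with 47 against 6. The highest bin of each of these 4 was above that of the promoter peaks of the member genes, of which the tallest was 25, at ASCL2. The 4 were picked for their tags, so this does not describe the list as a whole. In the rest of the 18 the highest bin ranged from 14, at CTBP1 and CTBP2, to 41, at CDC73. By tags the SP5 promoter peak, with 135, stood above PYGO2 and BCL9. No promoter summit was found at PYGO1, TLE2, TLE5, MED12, SMARCA4 and HIPK2. The lack of a called summit is not a lack of signal at each of them. SMARCA4 had 48 SOX9 tags against 16 input tags within 1 kb of its gene start, and HIPK2 had 32 against 10. MED12 had 30 against 10 and TLE5 had 25 against 8, whereas PYGO1 had 4 against 5 and TLE2 had 7 against 8. A half-site lay near the strongest promoter summit in 1 of the 18 genes (NLK), and CCAAT in 7. Of the 9631 SOX9 peaks within 1 kb of any TSS, 850 (8.83%) had a half-site and 2885 had CCAAT. The counts in the 18 genes are small and were not tested against these, so they are a description only.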

How the data were processed

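SOX9 ChIP and input DNA of HT-29 cells were analysed, 1 library each. According to the methods of the study, the authors aligned 50-nt reads to hg19 with BWA, discarded duplicates and non-unique alignments, and randomly reduced the input to the ChIP alignment number. The authors called peaks with MACS (p-value cut-off 1e-07, model fold 16, band width 150 bp). In the deposited peak list, tags are a count, the score is −10 times the log10 of the p-value, fold enrichment is a ratio to the local input and the FDR is a percent. The deposited signal maps give whole extended tags per 32-nt bin, without normalization, and each tag fills 5 bins, so tag counts were taken as summed signal divided by 5. The header of the deposited peak list gives 12319746 SOX9 tags and 12320062 input tags as unique. Reads carried no molecular identifiers that the sources name, so intervals cover counting error only. The sequencing depth was 12320108 tags in both libraries.

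Summits (start + summit − 1) were placed on GENCODE release 44 mapped to hg19 (254376 transcripts), and motifs were read from GRCh37. No test was run, as each group holds 1 library. The procedures were tested on simulated data. Members and lists were chosen with earlier results of these data known. For each gene all peaks are accounted for and the 3 with the most tags are given in full. Among the 24 cofactor genes, the 4 with the promoter peak of most tags and those without a promoter peak are named. Alternatives changed the peak threshold (score of 100), distances, TSS set, peak position, motif window and signal measure. Python 3.11.15, numpy 2.4.6, pandas 2.3.3, scipy 1.17.1, pysam 0.24.0 and matplotlib 3.10.9 were used.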

Additional observations from a re-analysis of the deposited data

How the results depend on the processing

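Of 25 alternative values of the main results, 20 kept their size and 5 did not. A count or density was taken as kept within a set factor of the main value, and a median within a counting interval. This allowance was wide, as the 10 peaks at the stricter score and the 2 peaks with a half-site within 50 bp, both given below, were taken as kept. With only peaks of a MACS score of at least 100, the 6 genes kept 10 peaks in place of 15, and 3 genes in place of 5 had a promoter summit (TCF7L2, SP5 and ASCL2, since the promoter peaks of TCF7 and LEF1 scored lower), against 35.9% of all protein-coding records. With a distance of 500 bp to the TSS this number was also 3, against 42.7%, but the genes were TCF7, TCF7L2 and LEF1, so TCF7L2 alone kept a promoter summit under both. Over the whole peak interval, 7 of the 15 peaks had a half-site, against 50.1% of all peaks. The median height was 21 as the highest SOX9 bin in place of tags, against 20 in all peaks, and this value differs from the main one in its unit. The median ratio of SOX9 to input was 5 in the summit bin, where all peaks had 6. The number of peaks was 14 with 10 kb and 19 with 50 kb around the genes. Of 31 alternative values for single genes or paired sites, 7 moved. At a score of at least 100, TCF7 had 1 peak, TCF7L2 had 4 and LEF1 had 0, TCF7L1 had 0 peaks with 10 kb and 2 with 50 kb, LEF1 had 2 with 50 kb, and 2 peaks had paired half-sites with spacers of 3 to 5 bp. Whether the member peaks stood above or below all peaks changed with the setting, and the counts behind this are small. At a score of at least 100 their median tags were 51.5, against 56 in all peaks, and half-sites were found in 3 of 10 member peaks, against 20.1% of all peaks. With 50 bp to either side of the summit 2 of 15 had a half-site, against 12.4%, and with a core of 6 bases 4 of 15, against 24.4%. The cause of these changes was not tested. No paired analysis was possible because each group holds 1 library, and leaving out a replicate was not possible for the same reason. Depth limits the smallest counts most, as at TCF7L1 and LEF1.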
